A study of Rattus norvegicus with 18 samples.

Results

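Collagens, laminins, fibulins, integrins, and the proteases and inhibitors that act on the matrix were followed in dorsal root ganglia (DRGs) of rats after total knee arthroplasty (TKA). Transcripts were taken by symbol from the 56 transcripts that the study tabulated for TKA against sham rats and from the copy of its supplementary gene lists used here. A symbol had to carry a number after Col, Mmp, Adam, Adamts, Serpin, Lama, Lamb, Lamc, Itga, Itgb, Fbln, Fbn, Timp, or Lox, and the transcript had to average at least 20 raw counts over 18 rats. Of 41078 transcripts in the count table, 3837 had a name, 49 matched by symbol, and 44, each of another gene, passed the minimum. Just inside the minimum lay *Lamb2* with a mean of 49.7 counts and *Adam12* with 57.5, and just outside it lay *Serpinb2* with 16.7 and *Col26a1* with 12.7. The other candidates under the minimum were a second *Serpinh1* transcript, *Mmp21*, and *Lama2*. No lysyl oxidase or fibrillin was among the 44.

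The transcripts were thus chosen by their measured differences between surgical groups. Of the 44 transcripts, 40 came from the list for TKA against sham rats, which is sorted by adjusted p-value, and the remaining 4 (*Adam8*, *Adam12*, *Adamts16*, *Adamts17*) came from the list for sham against naive rats. Differences between the surgical groups are therefore given as descriptions, and tests are reported for sex and for the interaction of sex and surgery, which the choice did not use.

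RNA was sequenced from 6 naive, 6 sham, and 6 TKA Sprague Dawley rats of about 300 g, and the labels of each group name 3 males and 3 females but no ages. Naive rats had no procedure. Sham rats were anesthetized with isoflurane, and the skin over the left knee was cut and sutured. TKA rats had the same anesthetic, removal of the menisci, reaming and trimming of femur and tibia, and press-fitted stainless steel prostheses. Left DRGs of levels L3 and L4 were taken 24 h after surgery, and each rat was 1 library with 20230562 to 29343899 counts. Sham rats thus control for anesthesia and skin incision only, and a whole ganglion holds neurons, glia, vessels, and connective tissue. In naive and sham rats, 3 transcripts had at least 100 counts in every male and at most 10 in every female, and 1 transcript the reverse. TKA rat 4, labelled female, went against its label with 3472 counts on those 3 and 0 on the other 1. The rats labelled male in the TKA group had 3414 to 5025 counts on the 3 transcripts, and the other females of the group had 0.

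The extracellular matrix of a ganglion has a capsule and connective tissue built on fibrillar collagens, and basement membranes of type IV collagen and laminin around vessels, Schwann cells, and satellite glia. Integrins are the cell surface receptors for these proteins. Metalloproteases of the Mmp, Adam, and Adamts families cut matrix and cell surface proteins, Timp proteins inhibit them, and serpins inhibit serine proteases. Remodeling of this matrix is a known part of tissue repair and of the response of peripheral nerve to injury.

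Promoter sequences (RefSeq, build GRCr8) were at hand for 33 of the 44 genes. Those without an entry included *Adam23*, *Adamts16*, *Col2a1*, *Col6a2*, *Fbln1*, *Itga6*, *Itgb2*, *Lamb2*, *Mmp19*, and *Serping1*. The first sequence is the whole stretch between the start sites of *Col4a1* (plus strand) and *Col4a2* (minus strand), shown because these divergent genes share it and their counts moved together. The others are the 250 bases before the start of *Mmp13*, *Col1a2*, and *Adamts1*, the 3 of the 33 genes with TATAAA, the TATA box, in the window. Capitals mark matches on either strand to TGACTCA, which is an AP-1 element, to the TATA box, and to the GC boxes GGGCGG and CCCGCC. The GC boxes can overlap each other on opposite strands.
Between Col4a1 and Col4a2, chr16:84885521-84885596, plus strand: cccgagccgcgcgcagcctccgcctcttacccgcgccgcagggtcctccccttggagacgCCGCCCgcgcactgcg
Mmp13, chr8:12782579-12782828, plus strand: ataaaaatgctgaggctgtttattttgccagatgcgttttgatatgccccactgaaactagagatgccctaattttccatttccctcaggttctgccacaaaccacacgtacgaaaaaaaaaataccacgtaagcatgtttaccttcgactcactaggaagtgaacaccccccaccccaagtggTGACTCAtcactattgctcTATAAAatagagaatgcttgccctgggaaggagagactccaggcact
Col1a2, chr4:33518307-33518556, plus strand: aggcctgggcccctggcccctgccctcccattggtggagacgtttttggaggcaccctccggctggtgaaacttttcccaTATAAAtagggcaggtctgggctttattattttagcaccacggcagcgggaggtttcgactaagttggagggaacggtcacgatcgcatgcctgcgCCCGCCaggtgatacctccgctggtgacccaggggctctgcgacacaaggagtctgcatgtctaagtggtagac
Adamts1, chr11:38427385-38427634, minus strand: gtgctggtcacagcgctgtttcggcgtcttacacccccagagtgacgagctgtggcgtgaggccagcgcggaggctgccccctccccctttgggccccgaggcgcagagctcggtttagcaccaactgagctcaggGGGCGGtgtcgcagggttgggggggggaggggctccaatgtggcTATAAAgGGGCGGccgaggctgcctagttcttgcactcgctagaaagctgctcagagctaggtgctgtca
In windows of 250 bases before to 50 after the start, TATAAA was in 3 of 33 promoters (9.09%) against 14.3% of all 27457 promoters in the table. TGACTCA was in 2 of 33 (6.06%, *Mmp13* and *Col6a1*) against 4.53% of all. In *Mmp13*, the gene of a collagenase, TGACTCA began 66 bases and TATAAA 47 bases before the start. TGACGTCA, the cyclic AMP response element, was in 0 of 33 against 1.91% of all. GGGCGG was in 23 of 33 (69.7%) against 34.9% of all, and CCCGCC in 24 of 33 (72.7%) against 33.8%. The 76 bases between *Col4a1* and *Col4a2* held 1 GC box. A match of letters is a description and not a binding site.

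Levels are given as CPM, counts brought to a common library size by TMM over all 18 rats, and fold-changes as log2 values with their standard error from edgeR's quasi-likelihood fit of the 12 rats of each pair. Called means a Benjamini-Hochberg adjusted p-value below 0.05 together with at least a 1.5-fold difference. For TKA against sham rats, edgeR tested 15320 transcripts and called 0 (0%), so 0 of the 44 were called. At an unadjusted p-value under 0.05 stood 26 of the 44 and 1355 of all transcripts tested (8.84%), a difference that the choice from a list sorted on this contrast builds in. DESeq2 with unshrunken fold-changes (no prior) called 64 of the same transcripts (0.418%), among them *Col8a2*, *Col6a6*, and *Timp1*. DESeq2 with a prior called 58 (0.379%), among them *Col8a2* and *Col6a6* but not *Timp1*. Limma voom with sample weights called 1 (0.00653%) and a fit of all 3 groups together 11 (0.0685%), and 0 of the 44 in both. Leaving out TKA rat 2, or TKA rats 2 and 6, or adding the neurofilament level as a covariate also gave 0 calls.

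In TKA against sham rats, 37 of the 44 transcripts had a log2 fold-change above 0 and 7 below it, where 51.5% of all transcripts tested lay above 0. The median was 0.70, and 0.01 over all transcripts tested. A fold-change of at least 1.5 was reached upward by 27 (10.7% of all transcripts tested) and downward by 2, *Col8a1* and *Itga11* (4.63% of all). Without TKA rats 2 and 6 the median was 0.20 and 32 lay above 0. Against naive rats, which share the TKA rats with the first comparison, 37 lay above 0 (52.2% of all transcripts tested) with a median of 0.73, and all transcripts tested had a median of 0.02. At least 1.5-fold higher were 32 (13.1% of all), and at least 1.5-fold lower were 2, again *Col8a1* and *Itga11* (5.29% of all). There edgeR called 13 of 15170 transcripts (0.0857%) and 0 of the 44, while 35 of the 44 and 2605 of all (17.2%) had an unadjusted p-value under 0.05. DESeq2 without a prior called 429 (2.83%) and 18 of the 44, and DESeq2 with a prior 344 (2.27%) and 17. Voom called 123 (0.811%) and 6 of the 44, the fit of all 3 groups 116 (0.723%) and 9, and the fit without TKA rats 2 and 6 called 105 (0.668%) and 5.

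The 6 TKA rats differed widely among themselves. Relative to the mean log2 level of the 12 naive and sham rats, the median over the 44 transcripts was 0.57, 1.37, 0.39, 0.37, 0.02, and 0.90 in TKA rats 1 to 6. In naive rats it lay between -0.20 and 0.07, and in sham rats between -0.37 and 0.29. TKA rat 5 was thus within the range of the control rats, and TKA rats 2 and 6 were the furthest above it. TKA rat 2 had the highest level of all 18 rats for 26 of the 44 transcripts (24.3% of all transcripts tested in the first comparison) and the lowest for 5 (27.4% of all). TKA rats 2 and 6 together held both top places for 23 of the 44, against 11.3% of all. Any TKA rat was highest for 35 of the 44, against 46.9% of all. The choice from a list sorted on TKA against sham rats favors such leads of TKA rats, so these shares are descriptions only.

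**Figure D1:**
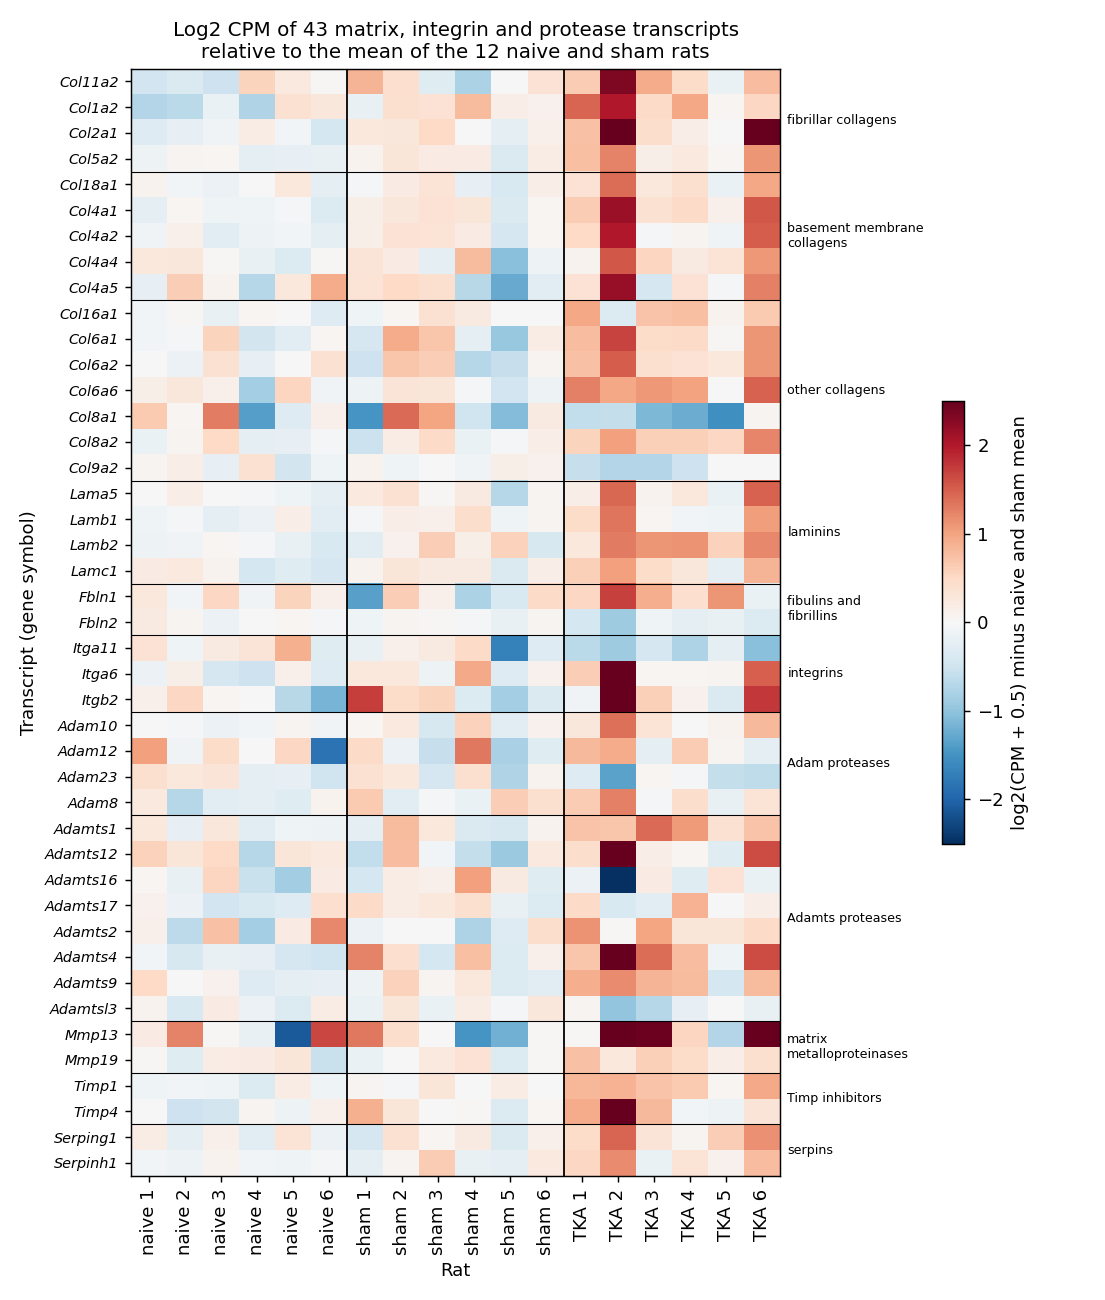
Log2(CPM + 0.5) of 43 of the 44 transcripts (rows, by role) in each of 18 rats (columns), as the difference from the mean of the 12 naive and sham rats, with colours ending at 2.5 log2 units either way. The columns of TKA rats 2 and 6 are the reddest, and TKA rat 5 looks like the control rats. *Adamts1* is raised in every TKA rat, least in TKA rat 5. *Col16a1* is raised in TKA rats 1, 3, 4, and 6 and lowest in TKA rat 2.

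The same 2 rats stood apart in marker genes of several cell types. Only marker genes with a name could be used. A name came from the study's own gene lists for these comparisons, so choice by measured differences is built into these sums. In a list for myelinating Schwann cells, 11 of 12 genes were named, such as *Prx*, the gene of periaxin. They summed to 16407 CPM in TKA rat 2 and 10060.1 CPM in TKA rat 6, against 1626 to 4184 CPM in the other 16 rats. The 3 named of 8 endothelial genes (*Cdh5*, *Tek*, *Vwf*) summed to 472 and 268 CPM, against 66.9 to 125 CPM. The 7 named of 11 fibroblast genes summed to 1332 and 1125 CPM, against 325 to 756 CPM, and included *Pdgfra* and *Dcn*. For macrophages, 9 of 13 genes were named, and their sum was 850 CPM in TKA rat 2 and 349.9 CPM in TKA rat 6, against 91.0 to 408 CPM in the other rats. Skeletal muscle genes (4 of 10) reached 8558 CPM in TKA rat 2, 887 CPM in TKA rat 6, and at most 902 CPM in the others. The 4 named of 11 genes of sensory neurons summed to 17534 and 21908 CPM in TKA rats 2 and 6, the lowest of all 18 rats. This sum was 29088 to 39678 CPM in the other TKA rats and 34673 to 46647 CPM in naive and sham rats. Nearly all of this sum was the neurofilament genes *Nefl*, *Nefm*, and *Nefh*. For each of these genes, TKA rats 1 and 5 were also below all naive and sham rats. The remaining gene, *Calca*, was at 70.4 CPM in TKA rat 2. In TKA rat 6 it was at 459 CPM, among the naive and sham rats at 421 to 629 CPM, and the other TKA rats were above these at 657 to 700 CPM. Satellite glia genes (4 of 5) were at 2741 and 723 CPM, against 291 to 673 CPM, and most of this sum was *Glul* and *Gfap*. *Fabp7* of the same list was not raised, at 49.5 CPM in TKA rat 2 against 26.6 to 51.3 CPM in naive and sham rats. In TKA rat 6 it was the lowest of all 18 rats at 24.7 CPM. The *Apoe* transcript used was near the floor in all 18 rats, at 2.03 and 0.0871 CPM in TKA rats 2 and 6. The only named mural gene, *Abcc9*, was at 43.3 and 14.5 CPM, against 5.94 to 15.2 CPM, and no neutrophil gene was named. None of the marker genes named was at 0 in every rat, and the defining neuronal neurofilament genes were present in all. The part of these differences in the results was not tested, and in whole ganglia fewer cells of a type and less RNA per cell cannot be told apart.

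Among the protease inhibitors, *Timp1* was higher in 5 of the 6 TKA rats than in any control rat. *Timp1* (ENSRNOT00000013745), a broad inhibitor of matrix metalloproteinases, lay at 31.4 to 45.4 CPM in naive rats (median 36.9), 39.1 to 48.8 CPM in sham rats (median 40.8), and 41.3 to 76.5 CPM in TKA rats (median 68.4). TKA rat 5 was the one TKA rat that lay among the controls. The log2 fold-change of *Timp1* was 0.62 ± 0.14 against sham and 0.79 ± 0.14 against naive rats, and 0.49 and 0.68 without TKA rats 2 and 6.

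The other inhibitors followed TKA rat 2 more closely. *Timp4* (ENSRNOT00000010748) lay at 4.73 to 7.65 CPM in naive rats (median 6.65), 5.44 to 13.4 CPM in sham rats (median 7.21), and 6.34 to 48.05 CPM in TKA rats (median 10.7). TKA rat 2 alone was at 48.05 CPM and the next rat, TKA rat 1, at 13.8 CPM. Its log2 fold-change of 0.98 ± 0.47 against sham rats was 0.26 without TKA rats 2 and 6. *Serping1* (ENSRNOT00000009817), the inhibitor of the complement protease C1, lay at 61.00 to 94.3 CPM in naive rats (median 73.8), 55.1 to 96.97 CPM in sham rats (median 78.6), and 76.97 to 204 CPM in TKA rats (median 108). TKA rats 2, 6, 5, and 1 were above all control rats, and the log2 fold-change was 0.73 ± 0.23 against sham rats and 0.33 without rats 2 and 6. *Serpinh1*, a collagen chaperone of the endoplasmic reticulum, averaged 58.1 ± 3.08 CPM in naive, 64.01 ± 16.7 CPM in sham, and 86.8 ± 30.04 CPM in TKA rats (SD, n = 6), with overlap between all groups.

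Among proteases, *Adamts1* (ENSRNOT00000002187), which cuts large proteoglycans such as versican, lay at 19.02 to 28.1 CPM in naive rats (median 21.2), 17.4 to 40.6 CPM in sham rats (median 22.3), and 30.3 to 62.9 CPM in TKA rats (median 38.3). Each of the 6 TKA rats exceeded each naive rat, whereas 1 sham rat at 40.6 CPM lay among the TKA rats. Such a gap upward from naive rats was found for 4 of the 44 (*Adamts1*, *Col4a1*, *Col8a2*, *Lamb2*), and for 1.31% of all transcripts tested, and a gap downward for 0 of the 44 and 1.25% of all. The highest *Adamts1* levels were in TKA rats 3 and 4, and its log2 fold-change was 0.78 ± 0.23 against sham rats and 0.85 without TKA rats 2 and 6. *Adamts4* (ENSRNOT00000004713), an aggrecanase, lay at 6.87 to 9.31 CPM in naive rats (median 7.87), 7.13 to 23.8 CPM in sham rats (median 12.1), and 9.10 to 149 CPM in TKA rats (median 22.03). The next rat below TKA rat 2, which had 149 CPM, was TKA rat 6 at 31.7 CPM. Its log2 fold-change fell from 1.65 ± 0.62 against sham rats to 0.37 without these rats, and against naive rats it was 2.39 ± 0.58 and 1.12. *Adamts9*, another proteoglycan protease, averaged 13.7 ± 3.16 CPM in naive, 14.4 ± 3.82 CPM in sham, and 23.6 ± 7.21 CPM in TKA rats (SD, n = 6). The procollagen N-proteinase *Adamts2* averaged 3.05 ± 1.89 CPM in naive, 2.21 ± 0.735 CPM in sham, and 3.82 ± 1.31 CPM in TKA rats (SD, n = 6).

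*Adamts12* reached 46.4 CPM in TKA rat 2 and 19.9 CPM in TKA rat 6, while the other 16 rats had 2.97 to 10.7 CPM. *Adamts16* had 0 counts in TKA rat 2 and 3.10 to 12.9 CPM in the other 17 rats. *Adamts17* averaged 11.1 ± 2.89 CPM in naive, 13.5 ± 3.04 CPM in sham, and 13.9 ± 4.95 CPM in TKA rats, and *Adamtsl3*, a relative without a protease domain, 25.5 ± 4.58 CPM in naive, 27.8 ± 4.20 CPM in sham, and 21.5 ± 5.88 CPM in TKA rats (SD, n = 6). The family therefore had no shared pattern, with 6 of 8 members above 0 in log2 fold-change against sham rats and a median of 0.75.

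Both matrix metalloproteinases were above 0 in log2 fold-change. *Mmp13* (ENSRNOT00000011507), collagenase 3, lay at 0 to 6.28 CPM in naive rats (median 1.82), 0.270 to 4.85 CPM in sham rats (median 1.67), and 0.778 to 19.00 CPM in TKA rats (median 6.92). TKA rats 2, 6, and 3 at 19.00, 13.97, and 11.3 CPM were above every other rat, and the other 3 TKA rats were among the controls. The log2 fold-change of 2.12 ± 0.82 against sham rats was the largest of the 44 and the one with the largest standard error. It was 1.11 without TKA rats 2 and 6, and 0.75 with voom's sample weights. *Mmp19* (ENSRNOT00000008909) lay at 3.995 to 7.67 CPM in naive rats (median 6.61), 4.67 to 7.97 CPM in sham rats (median 6.18), and 6.92 to 10.4 CPM in TKA rats (median 8.35). Here TKA rat 1 was the highest at 10.4 CPM, and 4 TKA rats exceeded all controls. The log2 fold-change was 0.43 ± 0.18 against sham rats and 0.48 without rats 2 and 6.

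Of the membrane-bound Adam proteases, *Adam10* (ENSRNOT00000083255), a sheddase that cuts Notch, lay at 111 to 129 CPM in naive rats (median 118), 92.9 to 184 CPM in sham rats (median 129.8), and 123 to 322 CPM in TKA rats (median 153). TKA rats 2 and 6 were the 2 highest, and the log2 fold-change against sham rats was 0.49 ± 0.24 with and 0.09 without them. *Adam23* (ENSRNOT00000040525), a neuronal member without catalytic activity, lay at 316 to 589.6 CPM in naive rats (median 467), 268 to 589.8 CPM in sham rats (median 509), and 176 to 468 CPM in TKA rats (median 329.8). TKA rat 2 was the lowest of all rats at 176 CPM and the groups overlapped. Its log2 fold-change was -0.47 ± 0.25 against sham rats and -0.27 without TKA rats 2 and 6. With the level of neurofilament transcripts as a covariate the value was 0.05. *Adam8*, known from leukocytes, averaged 4.20 ± 1.06 CPM in naive, 5.77 ± 1.74 CPM in sham, and 6.93 ± 2.89 CPM in TKA rats (SD, n = 6). *Adam12* averaged 2.45 ± 1.48 CPM in naive, 2.35 ± 1.80 CPM in sham, and 2.83 ± 1.17 CPM in TKA rats (SD, n = 6).

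**Figure D2:**
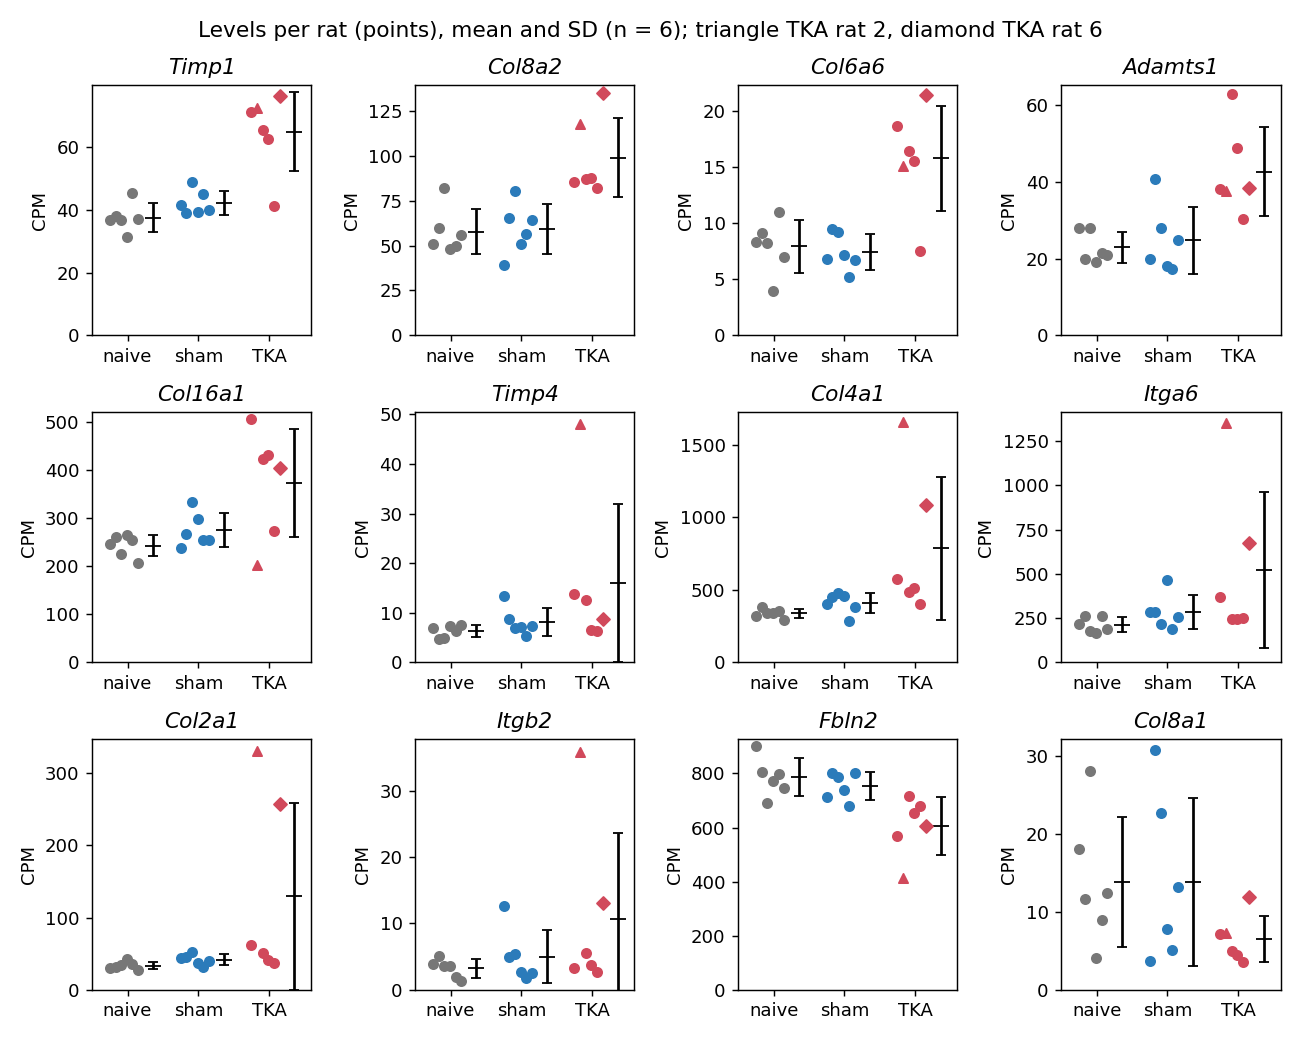
CPM of 12 transcripts in each rat (points), with mean and SD (bars, cut at 0) of 6 rats per group, on linear axes from 0. *Timp1*, *Col8a2*, *Col6a6*, *Adamts1*, and *Col16a1* are high in most TKA rats, *Timp4* in TKA rat 2, *Col4a1*, *Itga6*, *Col2a1*, and *Itgb2* mainly in TKA rats 2 (triangle) and 6 (diamond), and *Fbln2* and *Col8a1* tend lower.

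Collagens outside fibrils and basement membranes included 2 transcripts from the study's own table. *Col8a2* (ENSRNOT00000014388), a short-chain collagen of vessels and of Descemet's membrane, lay at 48.3 to 81.9 CPM in naive rats (median 53.4), 39.4 to 80.2 CPM in sham rats (median 60.3), and 82.1 to 135 CPM in TKA rats (median 87.2). It was the single transcript of the 44 in which no TKA rat was as low as any sham rat, and 0.457% of all transcripts tested had this gap upward. Its log2 fold-change was 0.74 ± 0.17 against sham and 0.77 ± 0.16 against naive rats, and without TKA rats 2 and 6 it was 0.51 and 0.56. *Col6a6* (ENSRNOT00000056414), a chain of type VI collagen, lay at 3.93 to 10.96 CPM in naive rats (median 8.28), 5.18 to 9.46 CPM in sham rats (median 6.99), and 7.55 to 21.4 CPM in TKA rats (median 15.98). All TKA rats except rat 5 were above all 12 controls, and the log2 fold-change against sham rats was 1.08 ± 0.24 with and 0.95 without rats 2 and 6. *Col16a1* (ENSRNOT00000067663), a fibril-associated collagen, lay at 207 to 265 CPM in naive rats (median 251), 239 to 334 CPM in sham rats (median 262), and 203 to 506 CPM in TKA rats (median 415). TKA rats 1, 3, 4, and 6 were above all controls, while TKA rat 2 at 203 CPM was the lowest of all 18 rats. The log2 fold-change was 0.44 ± 0.19 against sham rats and 0.56 without these 2 rats, so that *Col16a1* ran opposite to most other collagens in TKA rat 2.

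*Col8a1* (ENSRNOT00000060838), the partner chain of *Col8a2* in type VIII collagen, lay at 4.02 to 28.04 CPM in naive rats (median 11.99), 3.74 to 30.8 CPM in sham rats (median 10.5), and 3.54 to 11.8 CPM in TKA rats (median 6.02). Its highest TKA rat, rat 6 at 11.8 CPM, was below the highest control rats, but the lowest naive and sham rats were as low as the TKA rats. The log2 fold-change was -1.09 ± 0.49 against sham and -1.09 ± 0.41 against naive rats. *Col9a2*, a fibril-associated collagen of cartilage, averaged 33.2 ± 6.84 CPM in naive, 33.9 ± 2.58 CPM in sham, and 25.04 ± 6.19 CPM in TKA rats (SD, n = 6), with a log2 fold-change of -0.44 ± 0.15 against sham rats. *Col6a1* averaged 40.1 ± 10.4 CPM in naive, 45.3 ± 21.8 CPM in sham, and 73.01 ± 32.01 CPM in TKA rats, and *Col6a2* 82.7 ± 15.2 CPM in naive, 80.4 ± 35.5 CPM in sham, and 136 ± 50.6 CPM in TKA rats (SD, n = 6). These chains of type VI collagen kept a ratio of 0.397 to 0.722 (median 0.542) over the 18 rats.

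For all 5 basement membrane collagens, TKA rats 2 and 6 were the 2 highest of the 18 rats. *Col4a1* (ENSRNOT00000057386), one of the chains of the main type IV collagen, lay at 293 to 379 CPM in naive rats (median 342), 285 to 476 CPM in sham rats (median 428), and 401 to 1657 CPM in TKA rats (median 544). TKA rats 2 and 6 were at 1657 and 1087 CPM, and the other TKA rats at 401 to 575 CPM were still above all naive rats. Its log2 fold-change was 0.94 ± 0.32 against sham rats and 0.25 without these rats, and 1.21 ± 0.31 and 0.54 against naive rats. *Col4a2*, its partner chain from the divergent gene, averaged 184 ± 18.8 CPM in naive, 218 ± 39.8 CPM in sham, and 371 ± 253 CPM in TKA rats (SD, n = 6). The ratio of *Col4a1* to *Col4a2* stayed between 1.71 and 2.51 in the 18 rats, a 1.47-fold range, while *Col4a1* itself ranged 5.80-fold and *Col4a2* 5.39-fold. In TKA rats 2 and 6 the ratio was 2.09 and 1.91, within the range of the other rats.

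*Col4a5* (ENSRNOT00000064478), a chain of another type IV network, lay at 3.57 to 12.03 CPM in naive rats (median 6.99), 2.25 to 8.90 CPM in sham rats (median 6.45), and 4.45 to 29.7 CPM in TKA rats (median 8.02). Apart from rats 2 and 6, the TKA rats lay among the controls. The log2 fold-change of 0.99 ± 0.48 against sham rats was 0.13 without them. *Col4a4* averaged 9.83 ± 1.72 CPM in naive, 10.2 ± 4.29 CPM in sham, and 16.4 ± 7.36 CPM in TKA rats, and *Col18a1*, the collagen from which endostatin is cut, 91.6 ± 11.5 CPM in naive, 94.3 ± 17.6 CPM in sham, and 142 ± 58.4 CPM in TKA rats (SD, n = 6).

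The 4 fibrillar collagens had a median log2 fold-change of 0.89 against sham rats and 0.28 without TKA rats 2 and 6. *Col2a1* (ENSRNOT00000086062), known as the collagen of cartilage, lay at 27.3 to 41.9 CPM in naive rats (median 33.3), 31.4 to 52.4 CPM in sham rats (median 42.3), and 37.4 to 331 CPM in TKA rats (median 55.9). TKA rats 2 and 6 were at 331 and 257 CPM and no other rat exceeded 61.4 CPM. Its log2 fold-change fell from 1.64 ± 0.53 to 0.18 against sham rats when they were left out. *Col5a2* (ENSRNOT00000005073), which helps to start collagen fibrils, lay at 85.7 to 107 CPM in naive rats (median 91.3), 78.4 to 125 CPM in sham rats (median 116), and 105 to 239 CPM in TKA rats (median 145). TKA rats 2, 6, and 1 were the 3 highest, and the log2 fold-change was 0.55 ± 0.21 with and 0.19 without rats 2 and 6. *Col1a2*, a chain of type I collagen, averaged 4.52 ± 1.85 CPM in naive, 6.60 ± 1.67 CPM in sham, and 11.5 ± 6.36 CPM in TKA rats, and *Col11a2* 2.79 ± 1.02 CPM in naive, 3.33 ± 1.46 CPM in sham, and 6.51 ± 5.06 CPM in TKA rats (SD, n = 6).

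Laminins, the other main component of basement membranes, showed the same lead of TKA rats 2 and 6. *Lamb1* (ENSRNOT00000008321) lay at 235 to 317 CPM in naive rats (median 258), 262 to 381 CPM in sham rats (median 301), and 261 to 719 CPM in TKA rats (median 339.7). Both rats were far above the rest, at 719 and 583 CPM, and the log2 fold-change against sham rats moved from 0.45 ± 0.25 to -0.03 without them. The *Lamb2* transcript (ENSRNOT00000083578) had the fewest counts of the laminin transcripts followed, and its levels are not those of the whole gene. It lay at 1.02 to 1.55 CPM in naive rats (median 1.35), 1.004 to 2.54 CPM in sham rats (median 1.68), and 1.88 to 4.37 CPM in TKA rats (median 3.81). No TKA rat was as low as any naive rat, 4 of 6 were above all sham rats, and the log2 fold-change was 0.96 ± 0.33 against sham rats and 0.76 without TKA rats 2 and 6. *Lama5* averaged 39.8 ± 3.74 CPM in naive, 43.04 ± 9.99 CPM in sham, and 66.5 ± 35.5 CPM in TKA rats, and *Lamc1* 122 ± 27.2 CPM in naive, 139.8 ± 21.1 CPM in sham, and 188 ± 53.9 CPM in TKA rats (SD, n = 6).

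Of the integrins, *Itga6* (ENSRNOT00000002075), a subunit of laminin receptors, lay at 166 to 263 CPM in naive rats (median 203), 191 to 463 CPM in sham rats (median 271), and 245 to 1350.1 CPM in TKA rats (median 309). TKA rat 2 at 1350.1 CPM and TKA rat 6 at 674 CPM were the highest, and sham rat 4 at 463 CPM came next. Against sham rats the log2 fold-change of 0.88 ± 0.42 turned to -0.05 without rats 2 and 6 and to -0.48 with the neurofilament covariate. *Itgb2* (ENSRNOT00000001639), the beta chain of leukocyte integrins, lay at 1.27 to 5.16 CPM in naive rats (median 3.55), 1.70 to 12.6 CPM in sham rats (median 3.79), and 2.61 to 35.9 CPM in TKA rats (median 4.63). Only TKA rat 2 exceeded all other rats by a wide margin, at 35.9 CPM. Its log2 fold-change of 1.11 ± 0.69 against sham rats turned to -0.40 without rats 2 and 6 and to -0.08 with voom's sample weights. *Itga11*, a collagen receptor subunit, averaged 8.11 ± 2.59 CPM in naive, 6.15 ± 2.65 CPM in sham, and 4.03 ± 0.964 CPM in TKA rats (SD, n = 6), with log2 fold-changes of -0.61 ± 0.34 against sham and -1.01 ± 0.24 against naive rats.

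The 2 fibulins, glycoproteins of elastic fibers and basement membranes, went opposite ways. *Fbln1* (ENSRNOT00000047234) lay at 4.98 to 8.09 CPM in naive rats (median 6.19), 1.78 to 8.45 CPM in sham rats (median 4.95), and 4.70 to 18.5 CPM in TKA rats (median 9.21). TKA rats 2, 5, and 3 were above all controls, and the log2 fold-change was 0.996 ± 0.40 against sham rats and 0.87 without rats 2 and 6. *Fbln2* (ENSRNOT00000009696) lay at 692 to 902 CPM in naive rats (median 785), 679 to 803 CPM in sham rats (median 764), and 412 to 716 CPM in TKA rats (median 630.2). TKA rat 2 was the lowest at 412 CPM, and 5 of the 6 TKA rats were below all sham rats. For TKA rat 5 this was by a narrow margin, at 678.3 CPM against 678.9 CPM in sham rat 5. The log2 fold-change was -0.32 ± 0.12 against sham rats, -0.22 without rats 2 and 6, and -0.06 with the neurofilament covariate.

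**Figure D3:**
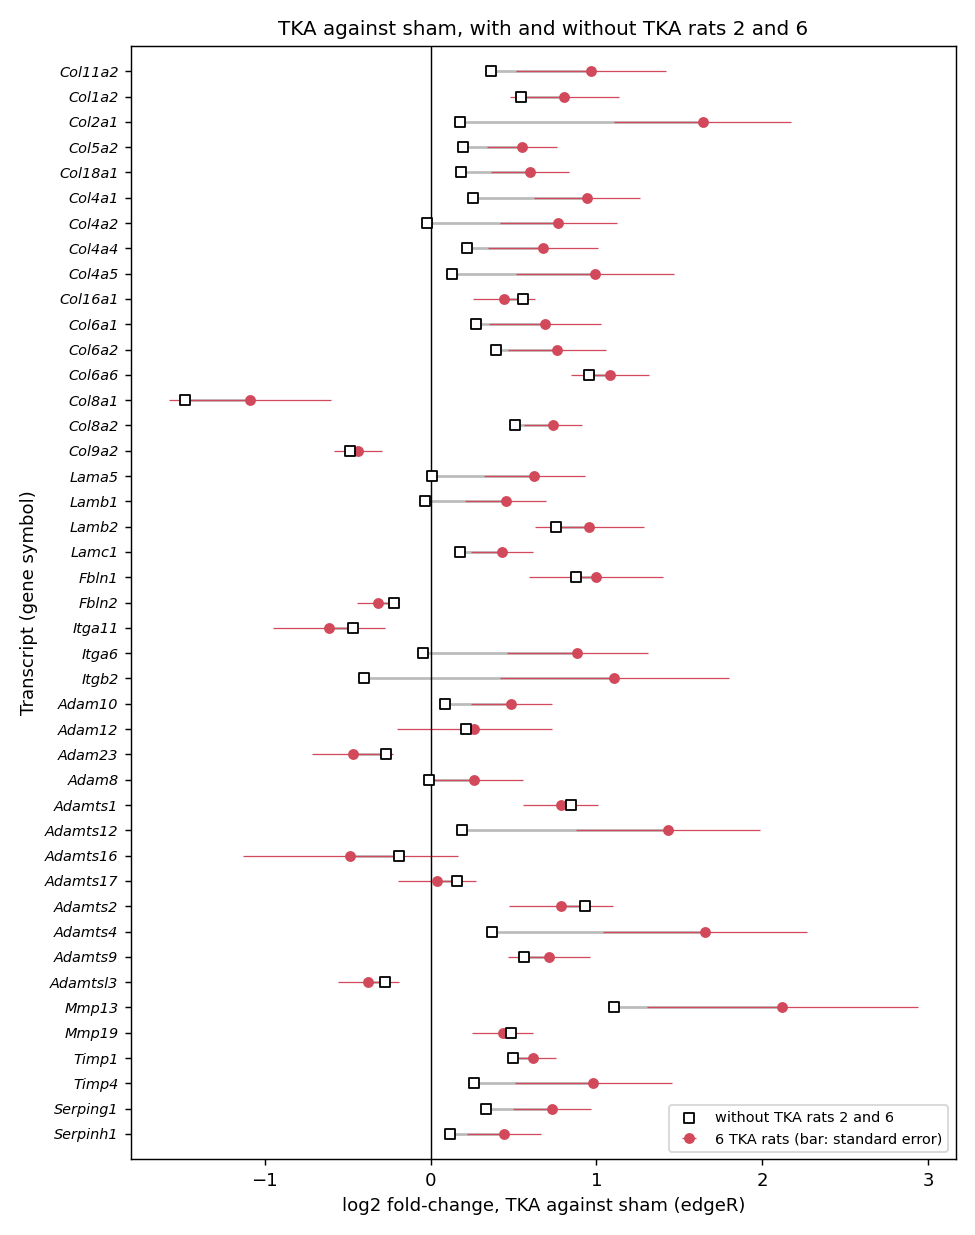
Log2 fold-change of TKA against sham rats for 43 of the 44 transcripts with all 6 TKA rats (filled, bar: standard error) and without TKA rats 2 and 6 (open squares). The values for *Timp1*, *Adamts1*, *Col16a1*, and *Col6a6* stay near each other, and those for *Col2a1*, *Adamts4*, *Adamts12*, *Itgb2*, and *Itga6* move toward or past 0.

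The neurofilament genes *Nefl*, *Nefm*, and *Nefh* mark large sensory neurons. Averaged over these genes, log2 CPM was 12.51 in TKA rat 2 and 12.80 in TKA rat 6. TKA rats 1 and 5, at 13.21 and 13.28, were also below all naive and sham rats, at 13.47 to 13.91. TKA rats 3 and 4, at 13.66 and 13.56, were among these. The neurofilament level thus differed between the groups, so a fit with it can also remove part of the group difference. With this level as a covariate, the median log2 fold-change of the 44 was 0.10 against sham and 0.17 against naive rats. Of the 44, 26 and 30 lay above 0. With the covariate, the log2 fold-change against sham rats was 1.11 for *Adamts1*, 1.04 for *Col6a6*, 0.70 for *Col16a1*, 0.48 for *Col8a2*, and 0.47 for *Timp1*. It was 0.02 for *Col4a1*, -0.22 for *Col2a1*, and -0.27 for *Lamb1*. Against naive rats, the fit with the covariate called *Adamts1* alone of the 44 (39 of all transcripts, 0.257%). Without TKA rat 2, 7 of the 44 were called against naive rats, including *Adamts1*, *Adamts4*, *Col16a1*, *Col4a1*, *Col8a2*, and *Timp1*, and 113 of all (0.732%).

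In sham against naive rats, differences were smaller. edgeR called 0 of 15153 transcripts (0%) and 0 of the 44, and 7 of the 44 and 625 of all (4.12%) had an unadjusted p-value under 0.05. DESeq2 without a prior called 4 of all (0.0264%) and 0 of the 44. The median log2 fold-change was 0.13, with 34 of 44 above 0 (51.7% of all transcripts tested). At least 1.5-fold higher were 2 of the 44, *Adamts4* and *Itgb2* (4.96% of all), and at least 1.5-fold lower 0 (2.74% of all). Without sham rat 1 both were under 1.5-fold, with log2 fold-changes of 0.49 for *Adamts4* and 0.09 for *Itgb2*. For *Itgb2*, which had 0.62 ± 0.45 with all rats, the same held without naive rat 5 (0.51) or naive rat 6 (0.46). For 0 of the 44 did all sham rats lie above (0.066% of all) or below (0.0924% of all) all naive rats. *Adamts4* had 0.74 ± 0.26, *Itga6* 0.42 ± 0.18, *Col2a1* 0.32 ± 0.13, and *Col4a1* 0.28 ± 0.11. *Col6a6* (-0.09 ± 0.23) differed by less than its standard error.

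Sex was compared in the 12 naive and sham rats, 6 labelled male and 6 labelled female, with group as a covariate. edgeR called 22 of 16055 transcripts (0.137%) and 0 of the 44. At an unadjusted p-value under 0.05 were 8 of the 44 and 2081 of all (13.0%), and all 8 were higher in males. Over the 44, 34 had a log2 difference above 0 (51% of all transcripts tested), 3 were at least 1.5-fold higher in males (*Itgb2*, *Col8a1*, *Mmp13*, 10.2% of all), and 0 at least 1.5-fold lower (4.21% of all). *Itgb2* lay at 3.58 to 12.6 CPM in males and 1.27 to 3.52 CPM in females, without overlap but by a narrow margin. How many of all transcripts had such a gap between the sexes was not counted. The log2 difference of *Itgb2*, male minus female, was 1.32 ± 0.33 (adjusted p = 0.113, edgeR). DESeq2 without a prior called it (adjusted p = 0.00940), as the single one of the 44 among 158 of all transcripts (0.984%). Without the filter on low counts, edgeR called *Itgb2* (adjusted p = 0.0321) and *Col8a1* (adjusted p = 0.0302) among 182 of all (0.719%). The 9 named macrophage genes, which mark cells that carry leukocyte integrins, summed to 177 to 408 CPM in these males and 91.0 to 168 CPM in these females. Most of this sum was *Lyz2*, at 108.6 to 302 CPM in males and 51.8 to 108.1 CPM in females. Each other gene of the list overlapped between the sexes. The part of the macrophage genes in the *Itgb2* difference was not tested.

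*Lamc1*, the gamma chain of most laminins, lay at 136 to 158 CPM in males and 94.1 to 149 CPM in females. Its log2 difference was 0.37 ± 0.10 (adjusted p = 0.143, edgeR), with overlap through 2 sham females. *Col8a1* lay at 3.74 to 30.8 CPM in males and 4.02 to 13.2 CPM in females, a log2 difference of 1.16 ± 0.41 (adjusted p = 0.242, edgeR). *Col6a1*, *Adamts1*, *Adamts9*, *Adam23*, and *Col5a2* had log2 differences of 0.19 to 0.58 and adjusted p-values (edgeR) of 0.270 to 0.381. With all rats but TKA rat 4, and surgery as a covariate, 12 of all transcripts (0.0711%) and 0 of the 44 were called (5 of all, 0.0303%, and 0 of the 44 with TKA rat 4 included), and *Itgb2* had a log2 difference of 1.20 (adjusted p = 0.535, edgeR).

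**Figure D4:**
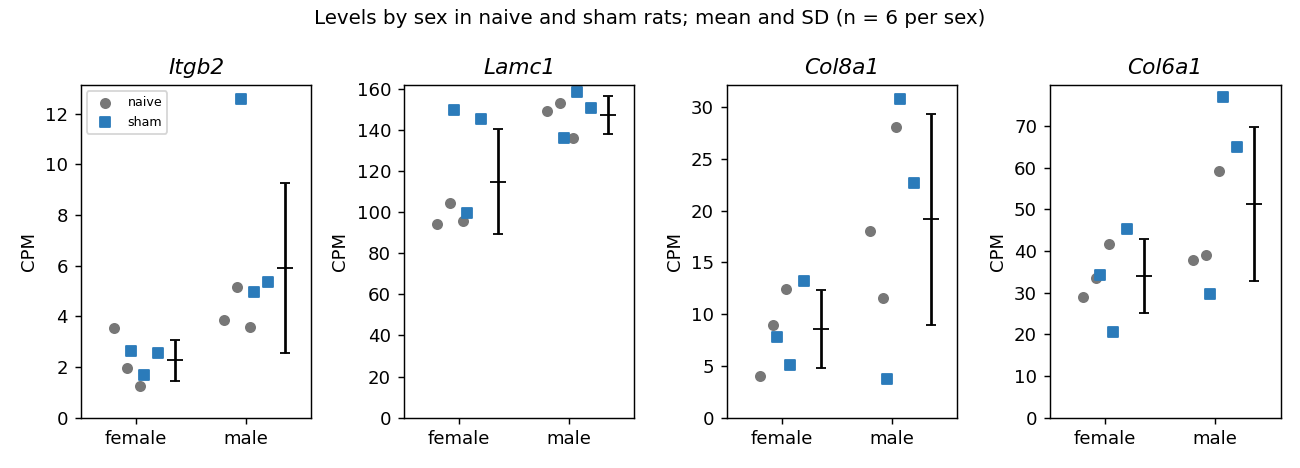
CPM of 4 transcripts in the 12 naive and sham rats by labelled sex (points, with mean and SD of 6 rats per sex), on linear axes from 0. Males and females are narrowly apart for *Itgb2* (lowest male 3.58 CPM, highest female 3.52 CPM), and they overlap for *Lamc1*, *Col8a1*, and *Col6a1*.

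The interaction of sex and surgery, the log2 fold-change of TKA against sham in males minus that in females, gave 0 calls with edgeR among 17049 transcripts (0%). At an unadjusted p-value under 0.05 were 0 of the 44 and 485 of all (2.84%), and DESeq2 without a prior called 14 of all (0.0821%) and 0 of the 44. For *Col8a1* the interaction was -1.17 ± 0.94 log2 units and for *Itgb2* -0.53 ± 1.19. These p-values do not show that the sexes responded alike, since in simulated counts edgeR called 0 of 200 transcripts given a 2-fold interaction. Sex is as labelled, which the counts of TKA rat 4 go against. Without that rat, 0 were called again.

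Genes of the same matrix that the symbol rule did not cover were taken from a list of 76. Of these, 38 had a named transcript and 35 were tested. A name meant that the transcript stood in the study's own gene lists for these comparisons, so the same choice by measured differences is built into the counts. In TKA against sham rats, 30 of the 35 had a log2 fold-change above 0 (51.5% of all transcripts tested) and 5 below it, with a median of 0.49. edgeR called 0, and 19 had an unadjusted p-value under 0.05 (8.84% of all). Against naive rats, 32 lay above 0 (52.2% of all) and 22 had an unadjusted p-value under 0.05 (17.2% of all). In sham against naive rats 22 lay above 0 (51.7% of all) and 3 had such a p-value (4.12% of all). The 2 of them in the study's own table were *Dcn* and *Tnfaip6*. *Dcn* (ENSRNOT00000006070), the collagen-binding proteoglycan decorin, averaged 245 ± 60.95 CPM in sham and 499.8 ± 213 CPM in TKA rats (SD, n = 6). TKA rats 2 and 6 were its highest at 778 and 754 CPM, and its log2 fold-change of 1.03 against sham rats was 0.57 without them. *Tnfaip6* (ENSRNOT00000070792), a hyaluronan-binding protein induced in inflammation, averaged 0.929 ± 0.420 CPM in sham and 3.90 ± 2.90 CPM in TKA rats (SD, n = 6). Its highest rat was TKA rat 4 at 8.84 CPM, and its log2 fold-change was 2.06 with and 2.35 without TKA rats 2 and 6.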

How the data were processed

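RNA was sequenced from DRGs of 18 rats. The authors mapped 150 bp read pairs with HISAT2 to rn6, counted reads per Ensembl transcript with featureCounts, and deposited these counts unnormalized. Tool versions, the annotation, and how strand and shared reads were handled are not given in the sources used here, so reads shared by isoforms, near-identical genes, or antisense partners leave single transcripts uncertain. The authors used DESeq2. Names came from the study's tables, of which shortened copies were used. Their own fold-changes and p-values were not used.

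The transcripts, lists, and tests here were chosen with earlier results of these data known. Pairwise fits used edgeR 4.0.16 (R 4.3.3, the 12 rats of the pair, filterByExpr, TMM, quasi-likelihood F test, Benjamini-Hochberg adjustment). All 44 transcripts passed the filter in every comparison. The standard error is |log2 fold-change| over the root of F. Values of single rats were given in full for transcripts in the study's table, those with the most counts or the largest fold-change in a class, and those with TKA rats on one side of a control group. DESeq2 1.42.0, limma 3.58.1 voom, other filters and scalings, covariates, the rat number as a block, and leaving out rats were alternatives. Of the 44, 1 transcript was counted but is not reported here, and 1 marker gene was left out. The scripts were tested on simulated counts in which 200 transcripts differed 2-fold. edgeR called 89 of the 200 for TKA against sham rats, 136 for sex, and 0 for the interaction. With an 8-fold interaction it called 138 of 200. False calls were 7 for TKA against sham rats, 9 for sex, and 0 and 9 for the 2-fold and 8-fold interaction. Rats were housed singly, and p-values measure the spread between these rats.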

Additional observations from a re-analysis of the deposited data

Results flagged for a closer look

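Among 72 groups of 6 rats (24 transcripts examined rat by rat, in 3 groups), 1 rat stood far from the other 5 in 4 groups. The rule was Dixon's test at the 95% level on log2 levels, and chance gives about 3.6 of 72. *Col5a2* was at 78.43 CPM in sham rat 5, where the next sham rat had 107.5 CPM. *Col6a6* was at 7.546 CPM in TKA rat 5, and the next TKA rat had 15.1 CPM. *Timp1* was at 41.31 CPM in TKA rat 5 against 62.59 CPM in the next TKA rat. *Mmp13* was at 0 CPM in naive rat 5, and the next naive rat had 1.372 CPM. TKA rat 2, the highest rat for most of the 44 transcripts, was not among these 4. The log2 scale narrows gaps at the high end, so this does not place TKA rat 2 near the others. In CPM its gaps were wide, as for *Timp4* with 48.05 CPM against 13.8 CPM in the next TKA rat. The test also weighs a rat against its nearest neighbor, so 2 high rats can hide each other. *Col2a1* was at 331 and 257 CPM in TKA rats 2 and 6, and at most 61.4 CPM in other rats.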

How the results depend on the processing

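Calls depended on the tool and on single rats. In TKA against sham rats, where edgeR called 0, DESeq2 without a prior called 64 and 4 of the 44, DESeq2 with a prior 58 and 3, voom 1, and a fit of all 3 groups together 11. In TKA against naive rats, where edgeR called 13 and 0 of the 44, DESeq2 without a prior called 429 and 18, with a prior 344 and 17, voom 123 and 6, the fit of all 3 groups 116 and 9, the neurofilament covariate 39 and 1, and the fit without TKA rats 2 and 6 called 105 and 5. In sham against naive rats DESeq2 without a prior called 4. For sex, against 22 calls and 0 of the 44, DESeq2 without a prior called 158 and 1, no filter on low counts 182 and 2, all 18 rats 5, and the 17 rats without TKA rat 4 gave 12. For the interaction DESeq2 called 14. The median log2 fold-change of the 44 in TKA against sham rats, 0.70, was 0.20 without TKA rats 2 and 6, 0.10 with the neurofilament covariate, and 0.29 with voom. In TKA against naive rats, 0.73 became 0.40, 0.17, and 0.48. The cause was not tested.

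With each rat left out in turn, calls ranged from 3 to 113 in TKA against naive rats (113 without TKA rat 2), of which 0 to 7 were among the 44, and from 9 to 134 for sex. They stayed at 0 in TKA against sham, in sham against naive, and in the interaction. Medians of the 44 ranged from 0.42 to 0.79 (TKA against sham), 0.52 to 0.82 (TKA against naive), and 0.05 to 0.19 (sham against naive), and 36 to 37, 36 to 38, and 28 to 36 of the 44 lay above 0. With a minimum mean count of 10, 50, or none, the rule gave 46, 43, or 49 transcripts.

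Rats of the groups share numbers in the labels, but same-numbered rats did not deviate together (correlations of -0.05 to 0.22), and 3, 2, and 1 of 12 rats correlated best with their own number in the 3 comparisons. The rat number as a block gave 0 calls in TKA against sham rats and 1 in TKA against naive rats, and medians of the 44 of 0.60, 0.65, and 0.08.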
